A study of Mus musculus with 8 samples.

Results

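The collagen gene family was followed through RNA sequencing of mouse cells sorted from embryoid bodies, which are clumps of pluripotent stem cells left to differentiate. Its members were the rows of the count table whose gene symbol is Col, a type number, the letter a and a chain number. This rule found 44 of 34536 genes and used no measured value. By type they divide into 11 genes of fibrillar collagens (types I, II, III, V, XI, XXIV and XXVII), 8 of basement membrane collagens (types IV, XV and XVIII) and 25 others. The libraries fall into 2 groups, 4 of cells labelled endocardial (A, C, E and G) and 4 of cells labelled endothelial (B, D, F and H). Both were taken by fluorescence-activated sorting from the same kind of culture. No genotype, treatment, stem cell line, culture day or sort marker is given in the sources used here, and nothing says that the libraries come from separate cultures, so each p-value covers no more than the variation among these libraries, and that variation may be technical.

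Collagens are secreted proteins in which chains wind into a triple helix. Fibrillar collagens pack into the banded fibrils of connective tissue, made mainly by mesenchymal cells, while type IV collagen forms the network of the basement membrane on which endothelium rests. Endothelial cells, the endocardium that lines the heart included, make type IV and type XVIII collagen, and the cushions that become heart valves fill with fibrillar collagen as endocardial cells turn to mesenchyme.

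Estimated counts per library summed to between 6677667 and 11369363. Levels are given in CPM, the counts of a gene scaled to the size of its library, with TMM factors between libraries. Markers of endothelium were present in every library, and the summed level of 8 of them was 1143 to 1642 CPM in the endocardial and 343 to 802 CPM in the endothelial libraries. Of the 8, 6 were called higher in the endocardial libraries, among them Cdh5, the cadherin of endothelial junctions, at 132 ± 17.3 CPM in endocardial and 16.1 ± 1.11 CPM in endothelial libraries (SD, n = 4 each). The summed level of 4 endocardial markers was 489.8 to 595 CPM in the endocardial and 137 to 162 CPM in the endothelial libraries, and 3 of the 4 were called higher. Calls are those of edgeR at the threshold given below, where 1.42% of all tested genes were called higher and 1.16% lower. The marker lists were chosen with earlier results of these data known. Markers of other cells were present too. The summed level of 10 mesenchyme and fibroblast markers, each with counts, was 1206 to 2189 CPM in the endocardial libraries and 1139.5 to 4901 CPM in the endothelial libraries, where library B held 4901 CPM and library H 2994 CPM. That of 9 epithelial, pluripotent and neural markers was 178 to 244 CPM in the endocardial and 359 to 794 CPM in the endothelial libraries, with library F the highest at 794 CPM, and 5 of the 9 were called lower in the endocardial libraries. The sum of 6 smooth muscle and mural markers was 918 to 1770 CPM in the endocardial and 501 to 1619 CPM in the endothelial libraries. For 10 endoderm and yolk sac markers it was 146 to 196 CPM in the endocardial and 90.5 to 188 CPM in the endothelial libraries. In these 2 lists edgeR called 0 of the 6 and 0 of the 5 that were tested. In such bulk samples, fewer cells of a type and less RNA per cell cannot be told apart.

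Over the whole family, the data show no collagen gene that differed between the groups past the threshold, a Benjamini-Hochberg adjusted p below 0.05 over all 13817 genes tested. Of the 44 members, 36 had enough counts to be tested, and edgeR's quasi-likelihood test called 0 of them, where 2.58% of all tested genes were called (1.42% higher and 1.16% lower). At an unadjusted p below 0.05 there were 8, or 22.2%, against 14.6% of all genes tested. The endocardial level was above the endothelial one in 4 of the 8 and below it in 4, against 5.65% and 8.99% of all genes. Of the alternative tools, DESeq2 called 3 (Col13a1 higher, Col9a2 and Col22a1 lower, where it called 6.25% of all genes, 2.40% higher and 3.85% lower). Limma with voom weights called 6, adding Col4a1, Col4a2 and Col23a1 as higher, where it called 7.06% of all genes, 2.97% higher and 4.09% lower. With each pair of adjoining letters (A with B and so on) as a block, a pairing no label states, 8 were called (5 higher and 3 lower), among 8.71% of all genes (3.65% higher and 5.06% lower). RLE scaling, no filter, a stricter filter and leaving out B and F together called 0 collagens, among 2.55%, 1.59%, 2.50% and 1.65% of all genes. Leaving out 1 library called Col22a1 without H, among 2.32% of all genes, and 0 collagens otherwise, among 1.34% (without A), 3.27% (without B), 1.11% (without C), 0.982% (without D), 0.961% (without E), 2.09% (without F) and 1.08% (without G). Only Col13a1 and Col22a1, 2 of the 36, had no overlap in level between the groups, while 9.76% of all tested genes had none. The log2 fold change, endocardial minus endothelial, had a median of -0.30 over the 36 members and 0.01 over all genes tested. By class, the median was -0.79 for the 11 fibrillar genes, 0.32 for the 6 tested basement membrane genes and -0.20 for the 19 tested others. All 11 fibrillar values were below 0, against 47.5% of all tested genes. Once library B was left out, 8 of the 11 fibrillar values were below 0, and their median was -0.21.

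**Figure D1:**
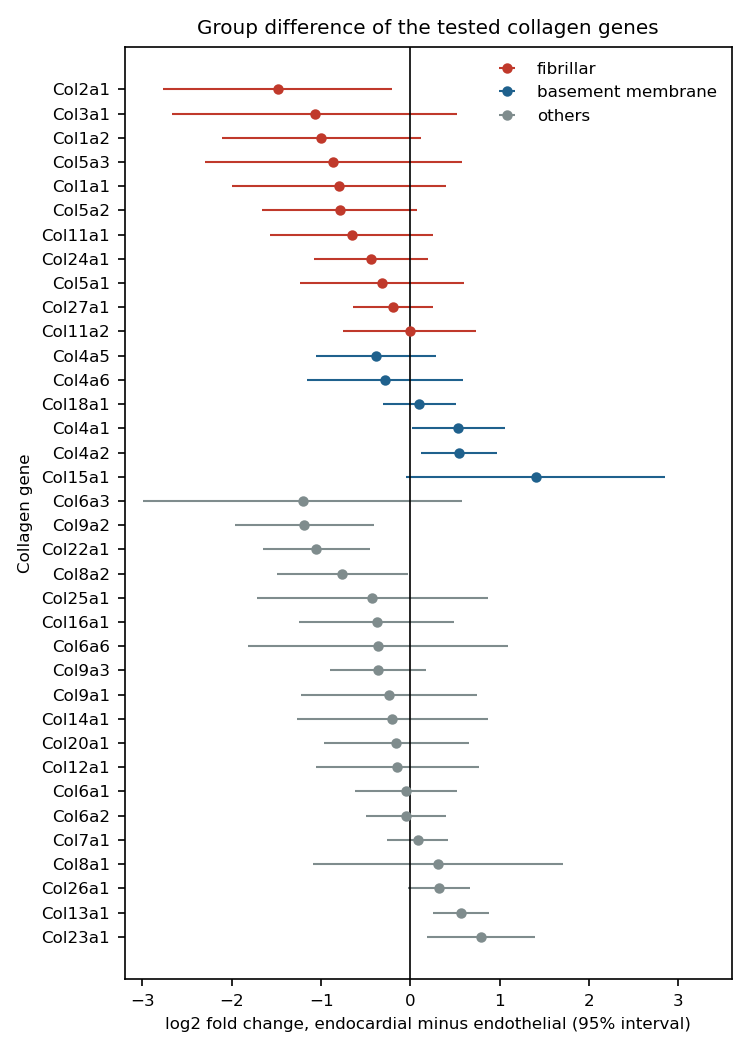
The log2 fold change of each tested collagen gene is plotted on the horizontal axis, endocardial minus endothelial, with 1 gene per row and bars for the 95% interval from the edgeR fit (4 libraries per group). Colours give the class. The 11 fibrillar genes lie between -1.48 (Col2a1) and -0.01 (Col11a2), with wide bars for Col3a1, Col5a3, Col2a1 and Col1a1.

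Most collagen transcript came from few genes. To compare genes, CPM were divided by the length in kilobases of the principal GENCODE transcript. On this scale of level, Col1a1 was the highest at 450.3 ± 121 CPM per kilobase in endocardial and 785 ± 670.0 in endothelial libraries (SD, n = 4 each). Col1a2 followed at 239 ± 52.3 in endocardial and 477 ± 381 CPM per kilobase in endothelial libraries, then Col18a1 at 298 ± 44.7 in endocardial and 278 ± 54.6 CPM per kilobase in endothelial libraries. Col3a1 was at 183 ± 108 in endocardial and 384 ± 429.8 CPM per kilobase in endothelial libraries, and Col4a1 at 219 ± 35.1 in endocardial and 151 ± 45.4 CPM per kilobase in endothelial libraries. Col5a1 was at 148 ± 35.9 in endocardial and 184 ± 110.5 CPM per kilobase in endothelial libraries, and Col4a2 at 138 ± 19.7 in endocardial and 94.4 ± 22.6 CPM per kilobase in endothelial libraries. These 7 stood apart from the rest, since the eighth by the mean of the 8 libraries, Col2a1, was at 19.7 ± 12.6 in endocardial and 55.05 ± 33.2 CPM per kilobase in endothelial libraries. In the endothelial libraries the SDs of the 7 overlap for every pair of neighbours in this order, and in the endocardial libraries those of Col1a1 and Col1a2 do not. This order is by the mean of the 8 libraries and differed by group. By the endocardial mean, Col18a1 ranked above Col1a2 and Col4a1 above Col3a1. By the endothelial mean, Col3a1 ranked above Col18a1 and Col5a1 above Col4a1. The order also moved when all annotated exons were taken as the length, which put Col1a2 sixth and Col18a1 second.

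**Figure D2:**
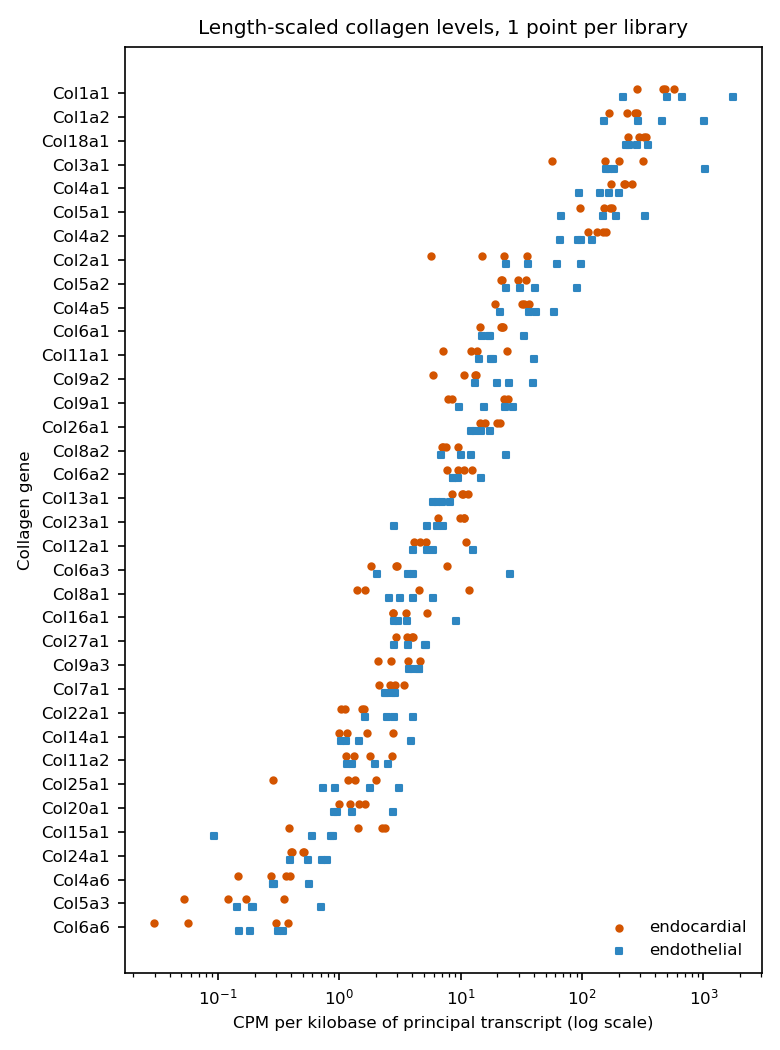
Each point is 1 library, and the horizontal axis gives CPM per kilobase of principal transcript on a log scale, with 1 tested collagen gene per row. Endocardial libraries are circles and endothelial libraries squares. The top 7 genes, Col1a1 to Col4a2, lie above the rest by their means, and the spread of the squares in Col1a1, Col1a2 and Col3a1 is wide.

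Summed by class, fibrillar collagens took up most of the collagen counts in every library. Fibrillar genes summed to 8590.2, 7308, 4650.1 and 6017 CPM in endocardial libraries A, C, E and G, and to 25482, 7501, 4434 and 9385 CPM in endothelial libraries B, D, F and H. Library B was far above all others and F was the lowest of the 8, so the endothelial group held both extremes. Basement membrane genes summed to 4116, 4052, 3143 and 4581 CPM in the endocardial libraries and to 3883, 2949, 2881 and 3103 CPM in the endothelial libraries, in the same order of letters. They varied far less, and the groups overlapped, since library B lay above E. The fibrillar sum was 1.67 ± 0.344 times the basement membrane sum in endocardial and 3.42 ± 2.19 times in endothelial libraries (SD, n = 4 each), with 6.56 in B, 3.02 in H and 1.54 in F. The fibrillar share of collagen counts was 58.7 ± 4.61% in endocardial and 69.8 ± 11.6% in endothelial libraries, and that of basement membrane genes 35.8 ± 4.65% in endocardial and 24.9 ± 9.64% in endothelial libraries. All collagens together were 1.34, 1.21, 0.841 and 1.04% of the counts of endocardial libraries A, C, E and G, and 2.998, 1.13, 0.837 and 1.26% of those of endothelial libraries B, D, F and H. These sums are given with no test, since they are scores over chosen members.

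**Figure D3:**
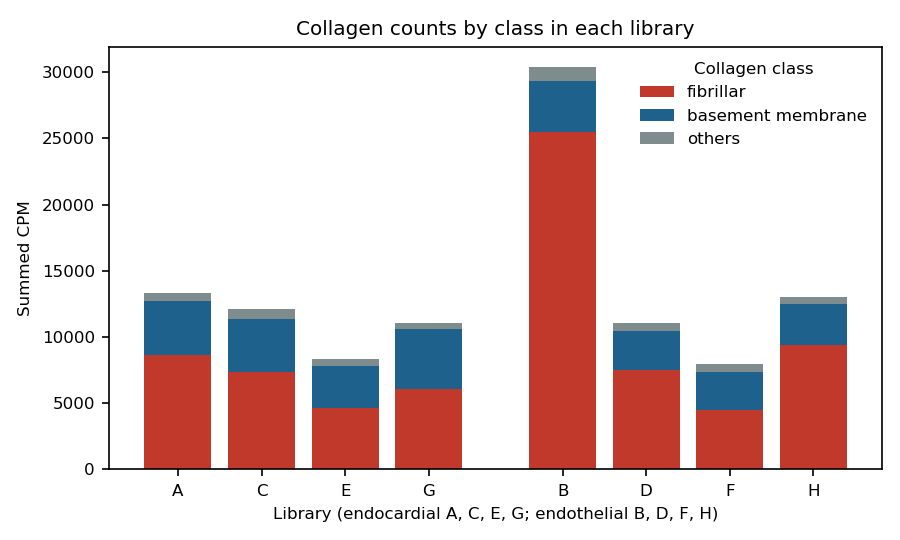
Bars give the summed CPM of collagen genes in each library, endocardial on the left and endothelial on the right, stacked by class. Library B reaches 30393 CPM, mostly of fibrillar genes, while the other 7 libraries lie between 7959.7 and 13314 CPM.

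Type I collagen, the main protein of connective tissue fibrils, is built from the chains of Col1a1 (chr11:94936224-94953042, GRCm38, plus strand) and Col1a2 (chr6:4504814-4541544, plus strand). Col1a1 had 3405, 2834, 1691 and 2750.1 CPM in endocardial libraries A, C, E and G, and 10383, 2992, 1298 and 3938 CPM in endothelial libraries B, D, F and H. The endothelial values enclosed all the endocardial ones, from F below to B above. Its fitted log2 fold change of -0.80 (adjusted p = 0.576, SE 0.54) had a 95% interval of -2.002 to 0.40 and was -0.03 without library B. Col1a2 had 1522, 1446, 895 and 1250.3 CPM in endocardial libraries A, C, E and G, and 5439, 1535, 805 and 2422 CPM in endothelial libraries B, D, F and H. Here too F was the lowest and B the highest library, and the log2 fold change was -0.9963 (adjusted p = 0.415, SE 0.50), or -0.30 without B. The level of Col1a1 relative to Col1a2 per kilobase was 2.02, 1.77, 1.703 and 1.98 in endocardial libraries A, C, E and G and 1.72, 1.76, 1.45 and 1.47 in endothelial libraries B, D, F and H. This ratio varied little beside the levels themselves, and its size depends on the length taken for Col1a2.

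Type III collagen, coded by Col3a1 (chr1:45311538-45349706, plus strand), joins type I in soft tissues and vessel walls. Col3a1 had 1764, 1126, 861 and 316 CPM in endocardial libraries A, C, E and G, and 5722, 1025, 930.3 and 869 CPM in endothelial libraries B, D, F and H. Library B stood alone, the other 3 endothelial libraries lay within the endocardial range, and G was the lowest of the 8. For Col3a1 the difference on the log2 scale was -1.07 (adjusted p = 0.572, SE 0.71), and it turned to 0.12 without B. Relative to Col1a1 per kilobase, Col3a1 was at 0.552, 0.424, 0.543 and 0.123 in endocardial A, C, E and G and at 0.587, 0.365, 0.764 and 0.235 in endothelial B, D, F and H, so that G and H had less Col3a1 for their Col1a1 than the other 6 libraries. The 250 bases before its start are shown because Col3a1 was the fibrillar gene that rested most on 1 library. They are from RefSeq (build GRCm38.p6, chr1:45311288-45311537, plus strand), with capitals marking the letters TATAA on either strand, which here overlap.

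Col3a1: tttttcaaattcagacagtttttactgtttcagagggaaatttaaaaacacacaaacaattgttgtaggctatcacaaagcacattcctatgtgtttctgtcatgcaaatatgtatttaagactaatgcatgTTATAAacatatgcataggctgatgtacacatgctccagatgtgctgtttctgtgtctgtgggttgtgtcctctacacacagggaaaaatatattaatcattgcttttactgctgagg

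This stretch has 35.2% G and C, and TATAA begins 117 bases before the start. In the 300-base RefSeq windows, 250 bases before to 50 after a start, TATAA on either strand occurred in 24.9% of 32851 windows. The match is a description of letters and not of a site.

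Type V collagen sets the width of type I fibrils. Its main chain gene Col5a1 had 1471, 1263, 815 and 1434 CPM in endocardial libraries A, C, E and G, and 2785, 1248, 566 and 1604 CPM in endothelial libraries B, D, F and H, with a fitted log2 fold change of -0.32 (adjusted p = 0.806, SE 0.41), which turned to 0.14 without B. Col5a2, which lies tail to tail with Col3a1 on chromosome 1 with 24615 bases between them, had 197, 228, 146 and 143 CPM in endocardial libraries A, C, E and G, and 604, 203, 157 and 273 CPM in endothelial libraries B, D, F and H, with a fitted log2 fold change of -0.79 (adjusted p = 0.404, SE 0.39). Both had B as the highest library, and the groups overlapped. Col5a3 was low, at 1.05 ± 0.7696 CPM in endocardial and 1.88 ± 1.61 CPM in endothelial libraries, and its highest library was F (4.28 CPM) rather than B.

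Types II and XI make the fibrils of cartilage and are also made in notochord and early neural tissue. Col2a1 (chr15:97975602-98004695, minus strand) had 75.7, 181, 116 and 29.2 CPM in endocardial libraries A, C, E and G, and 183, 317, 503 and 121 CPM in endothelial libraries B, D, F and H. It did not follow type I, since its highest library was F, where Col1a1 was lowest, and its lowest was G. At -1.48 (adjusted p = 0.257, SE 0.57), its log2 fold change was the lowest of the family and had an unadjusted p of 0.0278. The 95% interval ran from -2.76 to -0.20, and it was called in 1 of 15 alternatives, the fit with neighbouring letters as a block (adjusted p = 0.00512), and the log2 fold change was -1.06 without F. Of the 9 epithelial, pluripotent and neural markers, 7 were also highest in F, while Pax6 was highest in H and Nes in C. F was the highest library for 24.1% of all tested genes. Sox9, a regulator of Col2a1 in cartilage, was at 4.13, 8.69, 10.97 and 12.1 CPM in endocardial libraries A, C, E and G, and 7.49, 12.9, 15.1 and 15.4 CPM in endothelial libraries B, D, F and H (log2 fold change -0.50, adjusted p = 0.577, SE 0.33). Acan, the cartilage proteoglycan, was at 0.757 ± 0.2903 CPM in endocardial and 1.65 ± 0.633 CPM in endothelial libraries. Of the other chondrogenic markers, Matn1 (log2 fold change 1.31, adjusted p = 0.259, SE 0.51) and Hapln3 (0.17) had higher mean levels in the endocardial libraries. Cnmd was at 0.027 CPM in endocardial and 0.104 CPM in endothelial libraries. Acan and Cnmd had too few counts to be tested. Among the 3 tested, edgeR called 0 and limma 1 (Matn1), where they called 2.58% and 7.06% of all genes. The 5 chondrogenic markers, each with counts, summed to 21.4 to 24.5 CPM in endocardial and 17.3 to 26.8 CPM in endothelial libraries. The part of these cells in the Col2a1 values was not tested. Col11a1 had 105, 186, 93.8 and 54.9 CPM in endocardial libraries A, C, E and G, and 307, 141, 135 and 109 CPM in endothelial libraries B, D, F and H, with B the highest and a log2 fold change of -0.66 (adjusted p = 0.538, SE 0.41). Col11a2 was at 9.36 ± 3.79 CPM in endocardial and 9.34 ± 3.47 CPM in endothelial libraries (SD, n = 4 each), with a fitted log2 fold change of -0.01.

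The remaining fibrillar genes, Col24a1 and Col27a1, code for minor chains found mainly in bone and cartilage. Col27a1 had 30.98, 30.5, 22.3 and 27.6 CPM in endocardial libraries A, C, E and G, and 39.1, 27.7, 21.4 and 38.98 CPM in endothelial libraries B, D, F and H (log2 fold change -0.19, adjusted p = 0.74, SE 0.20), and Col24a1 was at 3.24 ± 0.405 CPM in endocardial and 4.41 ± 1.29 CPM in endothelial libraries (log2 fold change -0.44, adjusted p = 0.559, SE 0.29).

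Of the 11 fibrillar genes, 7 had their highest level of the 8 libraries in B, 2 in F, 1 in A and 1 in D. Over all tested genes, B was the highest library for 10.9% and F for 24.1%. F and G were the lowest library for 5 fibrillar genes each, against 21.4% and 13.4% of all tested genes. Of the 10 mesenchyme and fibroblast markers, each with counts, 5 were highest in B as well (Dcn, Lum, Pdgfra, Postn and Tcf21). Pdgfrb and Thy1 were highest in A, Prrx1 and Twist1 in E and Fbln1 in H, and Thy1 was lowest in B. Postn, a matrix protein of mesenchyme and cushions, had 1160.1, 1035, 567 and 1061 CPM in endocardial libraries A, C, E and G, and 3498, 1356, 561 and 2105 CPM in endothelial libraries B, D, F and H, and Lum, a proteoglycan that binds collagen fibrils, had 111, 37.99, 47.9 and 14.6 CPM in endocardial libraries A, C, E and G, and 408, 72.6, 92.6 and 67.7 CPM in endothelial libraries B, D, F and H. The sum of the 10 was highest in B and lowest in F, as was the fibrillar sum, and Postn alone made up 3498 of the 4901 CPM in B. The part of mesenchymal cells in the fibrillar values was not tested. Neither Postn nor Lum was called, with log2 fold changes of -0.98 (adjusted p = 0.402, SE 0.47) and -1.60 (adjusted p = 0.356, SE 0.73). Of the 10 markers, 5 had log2 fold changes below 0 and 5 above, with a median of 0.0024, and edgeR called 0. Those above 0 were Thy1 (0.33), Pdgfrb (0.29), Twist1 (0.19), Pdgfra (0.05) and Prrx1 (0.05).

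**Figure D4:**
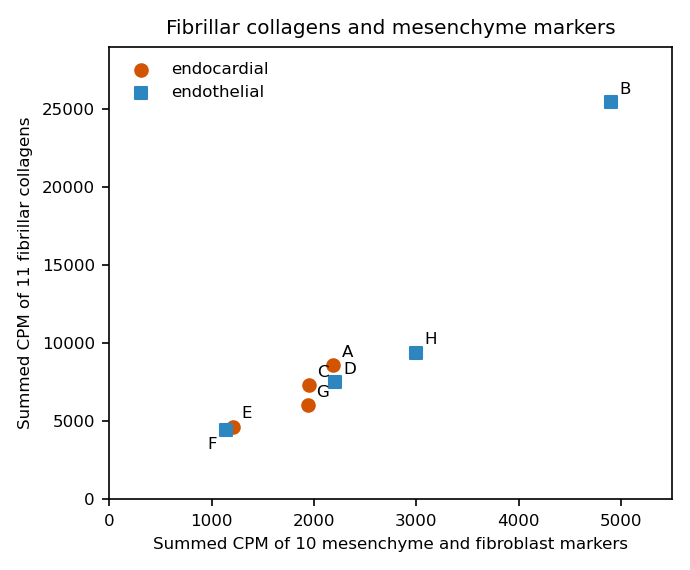
Each point is a library, with the summed CPM of 10 mesenchyme and fibroblast markers on the horizontal axis and that of the 11 fibrillar collagens on the vertical axis. Endocardial libraries are circles and endothelial libraries squares. B lies at 4901 and 25482 CPM, apart from the other 7, with Postn alone at 3498 CPM of its marker sum, and E and F lie lowest on both axes.

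Among the genes of type IV collagen, the network former of basement membranes, Col4a1 and Col4a2 had higher mean levels in the endocardial libraries, and neither passed the threshold in edgeR. Col4a1 and Col4a2, whose chains join in 1 trimer, are read from the same place on chromosome 8 in opposite directions. Col4a1 (chr8:11198423-11312826, minus strand) and Col4a2 (chr8:11312805-11449287, plus strand) have annotated starts 21 bases apart, so that their first exons overlap by 22 bases. That stretch is shown because it joins the 2 genes whose levels kept the steadiest ratio of the chain pairs compared. It is from RefSeq (GRCm38.p6, chr8:11312805-11312826, read on the plus strand), with capitals marking GGGCGG.

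Col4a1 and Col4a2 starts: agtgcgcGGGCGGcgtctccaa

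GGGCGG on either strand occurred in 35.7% of all promoter windows and in 5 of the 8 windows of basement membrane collagen genes. The Col4a1 and Col4a2 windows overlap, and the GGGCGG shown lies in both. Col4a1 had 1457, 1485, 1141 and 1705 CPM in endocardial libraries A, C, E and G, and 1338, 934, 621 and 1095 CPM in endothelial libraries B, D, F and H. Library F was the lowest of the 8 and B the only endothelial library above any endocardial one. On the log2 scale the fold change was 0.54 (adjusted p = 0.317, SE 0.23), its 95% interval 0.02 to 1.05, and its value 0.35 without F. Col4a2 had 863, 950.2, 723 and 1017 CPM in endocardial libraries A, C, E and G, and 781, 594, 427 and 632 CPM in endothelial libraries B, D, F and H, with the same overlap of B and E and a log2 fold change of 0.54 (adjusted p = 0.204, SE 0.19), with a 95% interval of 0.11 to 0.97. Limma with voom weights called both (adjusted p = 0.042 and 0.0201), as did the fit with neighbouring letters as a block (0.0456 and 0.0335), while DESeq2 did not. The level of Col4a1 relative to Col4a2 per kilobase was 1.65, 1.52, 1.54 and 1.64 in endocardial A, C, E and G and 1.67, 1.53, 1.42 and 1.69 in endothelial B, D, F and H, a 1.19-fold range over the 8 libraries. The summed endothelial markers were lowest in F as well, at 343 CPM. So were the sums of endocardial (137 CPM) and of mesenchyme and fibroblast markers (1139.5 CPM). The smooth muscle and mural sum (501 CPM) and the endoderm and yolk sac sum (90.5 CPM) were also lowest in F. Chondrogenic markers and epithelial, pluripotent and neural markers had their highest sums there. Of the 8 endothelial markers, Cdh5, Kdr and Tek were lowest in F, while Esam and Pecam1 were lowest in B and Emcn, Erg and Tie1 in H. The part of any of these cells in the type IV values was not tested.

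The other type IV genes form the networks of kidney, lung and other specialised membranes, and the 2 that were tested had lower mean levels in the endocardial libraries. Col4a5 (chrX:141475385-141689234, plus strand) had 219, 209, 125 and 241 CPM in endocardial libraries A, C, E and G, and 385, 239, 137 and 273 CPM in endothelial libraries B, D, F and H, with B the highest and a log2 fold change of -0.38 (adjusted p = 0.646, SE 0.30). Its head-to-head neighbour Col4a6, 1309 bases away, was at 1.95 ± 0.74 CPM in endocardial and 2.36 ± 0.924 CPM in endothelial libraries (SD, n = 4 each). Col4a3 and Col4a4, head to head on chromosome 1, had 30 and 57 counts over all 8 libraries and were not tested.

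Type XVIII collagen, a heparan sulfate proteoglycan of vascular basement membranes whose end fragment is endostatin, was among the most abundant. Col18a1 (chr10:77052178-77166548, minus strand) had 1562, 1397, 1138 and 1614 CPM in endocardial libraries A, C, E and G, and 1369, 1176, 1686 and 1099 CPM in endothelial libraries B, D, F and H. The groups overlapped throughout, with F the highest and H the lowest library. The log2 fold change was 0.10 (adjusted p = 0.874, SE 0.18), and the 95% interval of -0.31 to 0.51 covers differences of either sign. Col15a1, its relative in the outer zone of basement membranes, had 12.4, 7.33, 11.6 and 1.996 CPM in endocardial libraries A, C, E and G, and 4.55, 3.07, 4.38 and 0.478 CPM in endothelial libraries B, D, F and H. Libraries A, C and E were above all endothelial ones but G was not, and the log2 fold change was 1.40 (adjusted p = 0.364, SE 0.65), with an interval of -0.05 to 2.85. The counts behind the lowest values were 16 in G and 4 in H. Within each pair of adjoining letters the endocardial library was the higher one, and the fit with those pairs as a block called the gene, with 1.44 and an adjusted p of 0.00485.

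**Figure D5:**
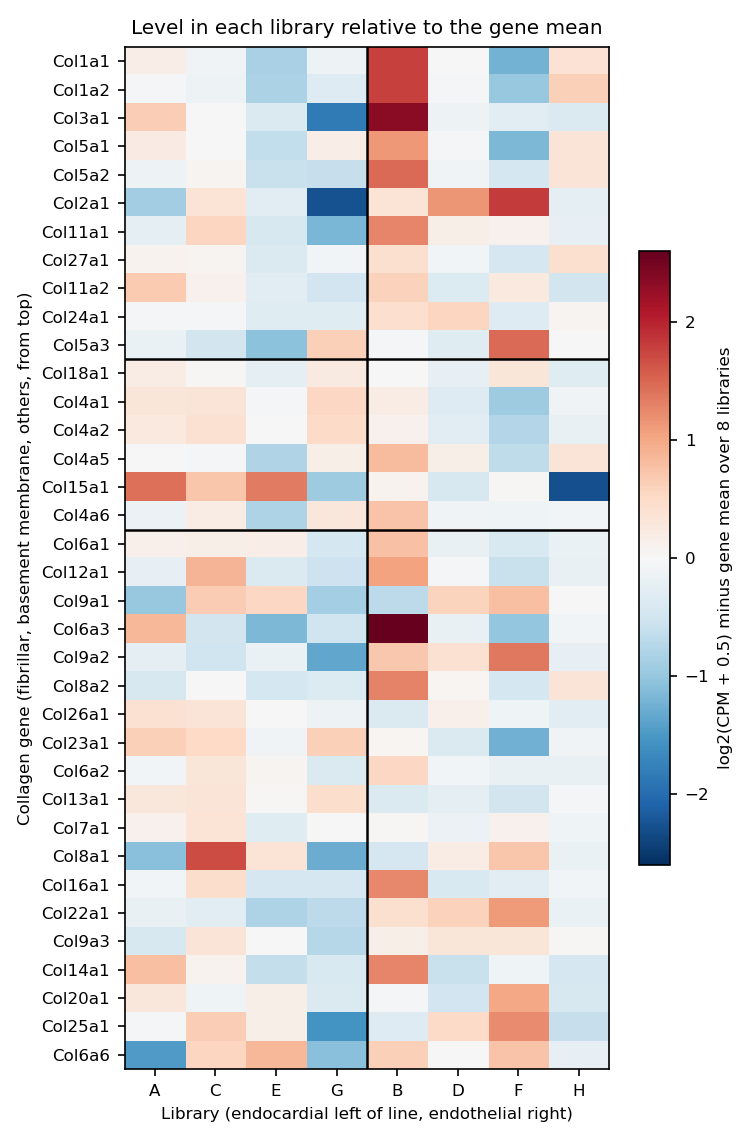
Rows are the 36 tested collagen genes, grouped into fibrillar, basement membrane and others, and columns the 8 libraries, endocardial left of the line. Colour gives log2(CPM + 0.5) minus the gene's mean over the libraries, red for above and blue for below it. B is red for most fibrillar genes, Col6a3 and Col8a2, and F for Col2a1, Col5a3 and Col9a2, while Col4a1 and Col4a2 are red in A, C, G and, more faintly, endothelial B, and bluest in F.

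Among the others, type VI collagen forms beaded filaments between cells and fibrils. Col6a3, the chain that completes its trimer, had 69.2, 26.9, 16.5 and 26.2 CPM in endocardial libraries A, C, E and G, and 229.9, 33, 18.5 and 36.1 CPM in endothelial libraries B, D, F and H. Library B stood alone, and the log2 fold change of -1.21 (adjusted p = 0.568, SE 0.79) turned to 0.26 without B. Col6a1 was at 81.8 ± 15.4 CPM in endocardial and 84.5 ± 34.5 CPM in endothelial libraries and Col6a2 at 39.6 ± 7.91 CPM in endocardial and 40.8 ± 11.2 CPM in endothelial libraries (SD, n = 4 each), with log2 fold changes of -0.05 and -0.05. B was the highest library for both, though less far above the rest than for Col6a3. Col6a6 was low, at 1.68 ± 1.53 CPM in endocardial and 2.18 ± 0.843 CPM in endothelial libraries, with a fitted log2 fold change of -0.36.

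Type VIII collagen forms hexagonal networks under endothelium. Col8a2 had 31.1, 41.1, 30.2 and 32.6 CPM in endocardial libraries A, C, E and G, and 103, 43.2, 30.04 and 52.7 CPM in endothelial libraries B, D, F and H, and its log2 fold change of -0.76 (adjusted p = 0.319, SE 0.33) was -0.30 without B. Col8a1 had 8.26, 59.5, 23.3 and 7.11 CPM in endocardial libraries A, C, E and G, and 13.2, 20.6, 29.9 and 16.02 CPM in endothelial libraries B, D, F and H, with C the highest library and a log2 fold change of 0.31 (adjusted p = 0.886, SE 0.62). It turned to -0.64 without C. Col7a1, the anchoring fibril collagen of skin, was steady at 25.4 ± 4.87 CPM in endocardial and 24.01 ± 2.06 CPM in endothelial libraries (SD, n = 4 each).

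Of the collagens that attach to fibrils without forming them, known as FACIT, 8 were tested. All 8 log2 fold changes were below 0, against 47.5% of all tested genes. Those of Col12a1, Col14a1, Col16a1 and Col20a1 were above 0 with limma and voom weights. Each of these also turned in at least 1 fit with a single library left out. Col9a2, a chain of type IX, which coats type II fibrils, had 37.96, 30.98, 39.4 and 17.2 CPM in endocardial libraries A, C, E and G, and 73.1, 58.6, 116 and 38.5 CPM in endothelial libraries B, D, F and H. Endothelial B, D and F were above every endocardial library, but H lay below E. The log2 fold change was -1.19 (adjusted p = 0.119, SE 0.35), with an interval of -1.97 to -0.41. DESeq2 called Col9a2 (adjusted p = 0.0127), as did limma with voom weights (0.0352) and the fit with neighbouring letters as a block (0.00198). F was the highest library for it as for Col2a1. Col9a1 had 29.95, 94.2, 86.6 and 32.2 CPM in endocardial libraries A, C, E and G, and 36.8, 89.4, 103 and 59.3 CPM in endothelial libraries B, D, F and H and Col9a3 was at 9.95 ± 3.42 CPM in endocardial and 12.8 ± 1.21 CPM in endothelial libraries, with log2 fold changes of -0.24 (adjusted p = 0.871, SE 0.44) and -0.36 (adjusted p = 0.573, SE 0.24).

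Col22a1, a collagen of tissue junctions such as that of muscle and tendon, had 14.1, 13.4, 9.14 and 9.86 CPM in endocardial libraries A, C, E and G, and 21.8, 24.8, 35.7 and 14.2 CPM in endothelial libraries B, D, F and H. Every endothelial library was above every endocardial one, though H was close to A. The log2 fold change was -1.05 (adjusted p = 0.0752, SE 0.27), with an interval of -1.65 to -0.46. It was called by DESeq2 (adjusted p = 0.00923), by limma with voom weights (0.0347), with adjoining letters as a block (0.0375) and without library H (0.0264). Col12a1, the FACIT of dense connective tissue, had 59.8, 127, 53.2 and 47.8 CPM in endocardial libraries A, C, E and G, and 144, 67.6, 46.4 and 60.3 CPM in endothelial libraries B, D, F and H, with B and C high in their groups and a log2 fold change of -0.15 (adjusted p = 0.923, SE 0.41). Col14a1 was at 9.37 ± 4.57 CPM in endocardial and 10.6 ± 7.66 CPM in endothelial libraries and Col16a1 at 18.7 ± 6.07 CPM in endocardial and 24.2 ± 15.5 CPM in endothelial libraries, both with B the highest, and their log2 fold changes of -0.20 and -0.38 turned to 0.45 and 0.19 without B. Col20a1 was at 6.63 ± 1.38 CPM in endocardial and 7.35 ± 4.35 CPM in endothelial libraries, highest in F.

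The transmembrane collagens, which stay in the cell surface, included the 2 highest log2 fold changes of the 19 others. Col13a1 (chr10:61838236-61979108, minus strand), found at cell-matrix contacts, had 32.1, 33.1, 26.9 and 35.9 CPM in endocardial libraries A, C, E and G, and 19.97, 22.3, 18.8 and 25.7 CPM in endothelial libraries B, D, F and H. Every endocardial library was above every endothelial one, though E was close to H. The log2 fold change was 0.56 (adjusted p = 0.0696, SE 0.14), with a 95% interval of 0.25 to 0.87, and the adjusted p was the lowest of the family. DESeq2 and limma with voom weights called it (adjusted p = 0.0127 and 0.0142), as did the fit with neighbouring letters as a block (0.0111). No single library moved its log2 fold change outside 0.48 to 0.65. The 250 bases before its start are shown because it was the member nearest the threshold (RefSeq, GRCm38.p6, chr10:61979109-61979358, minus strand, capitals marking TATAA).

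Col13a1: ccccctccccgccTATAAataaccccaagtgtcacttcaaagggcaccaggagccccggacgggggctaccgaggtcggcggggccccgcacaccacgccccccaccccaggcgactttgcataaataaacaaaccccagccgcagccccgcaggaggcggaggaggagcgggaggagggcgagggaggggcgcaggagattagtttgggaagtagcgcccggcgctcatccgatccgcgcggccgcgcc

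This stretch has 68.8% G and C, against 35.2% in that of Col3a1, and its TATAA begins 237 bases before the start. Col23a1 had 60.03, 55.6, 36.5 and 59.9 CPM in endocardial libraries A, C, E and G, and 40.5, 29.6, 16.1 and 36.2 CPM in endothelial libraries B, D, F and H. F was the lowest library by far and B the only endothelial one above an endocardial one. The log2 fold change was 0.79 (adjusted p = 0.188, SE 0.27), with an interval of 0.19 to 1.39, and it was 0.56 without F. Limma with voom weights called Col23a1 (adjusted p = 0.0244), as did the fit with neighbouring letters as a block (0.005), while DESeq2 did not (0.0744). Col25a1 was low, at 3.16 ± 1.85 CPM in endocardial and 4.28 ± 2.84 CPM in endothelial libraries. Col26a1, an extracellular collagen outside the main classes, was at 48.7 ± 8.58 CPM in endocardial and 39.1 ± 6.33 CPM in endothelial libraries (SD, n = 4 each), with a fitted log2 fold change of 0.32 (adjusted p = 0.405, SE 0.16).

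The 8 members without enough counts to test were Col4a3, Col4a4, Col6a4, Col6a5, Col10a1, Col17a1, Col19a1 and Col28a1. Their counts over all 8 libraries summed to between 1 (Col28a1) and 61 (Col17a1). Col10a1, the collagen of hypertrophic cartilage, had 4 counts in all and none in 5 libraries. A count of 0 allows a level of up to 3 counts, or 0.267 to 0.438 CPM by library, which covers counting error only. Col17a1, a collagen of epithelial hemidesmosomes, had 32 of its 61 counts in library F. Of the 9 epithelial, pluripotent and neural markers, 7 were also highest in F, Epcam and Cdh1 among them, as were 24.1% of all tested genes. The part of such cells in the Col17a1 counts was not tested.

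Among genes that fold, process, bind or regulate collagen, edgeR called 1, the laminin gene Lama3. Over all genes tested, edgeR called 2.58%, DESeq2 6.25% and limma 7.06%, and 14.6% had an unadjusted p below 0.05 in edgeR. Of 22 genes of collagen folding and modification, edgeR, DESeq2 and limma each called 0, with 0 at an unadjusted p below 0.05 in edgeR, and the median log2 fold change was -0.11. They included Plod2, a lysyl hydroxylase (log2 fold change -0.29, adjusted p = 0.41, SE 0.14), Creb3l2, a regulator of the secretory path (0.31), and the prolyl hydroxylase subunits P4ha2 (-0.28) and P4ha3 (-0.56). Of 13 tested genes of propeptide processing and cross-linking, edgeR, DESeq2 and limma each called 0 and 3 (23.1%) had an unadjusted p below 0.05, with a median of -0.12. Lox, the cross-linking lysyl oxidase, had 12.8, 22.3, 15.8 and 12.1 CPM in endocardial libraries A, C, E and G, and 77.7, 17.1, 18.6 and 22.8 CPM in endothelial libraries B, D, F and H, again with B alone (log2 fold change -1.12, adjusted p = 0.328, SE 0.49). The other genes with the smallest p were Adamts14, a procollagen protease (-0.75), Tll1, a tolloid protease (1.06), and Loxl2 (-0.39).

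Of 17 tested partners of the basement membrane, 1 was called higher, 0 lower and 16 were not called, and 4 (23.5%) had an unadjusted p below 0.05, with a median of -0.13. The called gene was Lama3, a laminin chain, with 3.87, 3.98, 5.48 and 9.98 CPM in endocardial libraries A, C, E and G, and 1.07, 1.02, 2.19 and 1.44 CPM in endothelial libraries B, D, F and H and a log2 fold change of 2.01 (adjusted p = 0.0329, SE 0.41). It was low in all libraries and its groups did not overlap. Lama5, a laminin chain of many basement membranes, ran the other way with the groups apart, at 241 ± 39.7 CPM in endocardial and 360.5 ± 64.8 CPM in endothelial libraries (log2 fold change -0.58, adjusted p = 0.104, SE 0.16), and edgeR did not call it. Npnt, the integrin ligand nephronectin, had a log2 fold change of -0.67 with overlapping groups and was not called either. DESeq2 and limma both called Lama3 and Lama5. Of 13 tested fibril partners, edgeR and DESeq2 called 0, limma called 1 (Matn1), 3 (23.1%) had an unadjusted p below 0.05 and the median was -0.25. Dcn, the fibril proteoglycan decorin, had 19.2, 6.07, 8.28 and 4.37 CPM in endocardial libraries A, C, E and G, and 81.8, 12.4, 14.3 and 13.3 CPM in endothelial libraries B, D, F and H (log2 fold change -1.70, adjusted p = 0.317, SE 0.72), with B alone once more. The matrilin genes Matn3 and Matn1 had log2 fold changes of -0.89 and 1.31, and Fmod, coding for fibromodulin, -1.16.

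Of 11 tested collagen receptors, edgeR called 0, DESeq2 1 (Ddr1) and limma 1 (Itga2), and 3 (27.3%) had an unadjusted p below 0.05, with a median of 0.23. Ddr1, a receptor kinase that collagen activates, had 97.99, 121, 87 and 102 CPM in endocardial libraries A, C, E and G, and 162, 140.0, 132 and 127 CPM in endothelial libraries B, D, F and H, the groups apart, and a log2 fold change of -0.46 (adjusted p = 0.0911, SE 0.13). The collagen-binding integrin subunits Itga11 and Itga2 had log2 fold changes of 1.10 and 1.26, and the adhesion receptor Adgrg6 0.56. Of 11 tested genes of collagen breakdown and its inhibitors, edgeR, DESeq2 and limma each called 0 and 3 (27.3%) had an unadjusted p below 0.05, with a median of 0.11. Mmp15, a membrane-bound metalloprotease, had a log2 fold change of 0.44, Timp1, a metalloprotease inhibitor, -0.56, Mmp16 -0.67 and the cathepsin gene Ctsl 0.26. Of 15 tested regulators of collagen genes, edgeR called 0, DESeq2 1 (Runx1) and limma 2 (Runx1 and Sox5), and 3 (20%) had an unadjusted p below 0.05, with a median of 0.00. The smallest p belonged to Runx1, better known from blood formation, at 36.7 ± 13.7 CPM in endocardial and 13.6 ± 5.16 CPM in endothelial libraries (log2 fold change 1.42, adjusted p = 0.0578, SE 0.33), then Sox5, a cartilage factor (-0.46), Tgfb1 (0.58) and the tendon factor Mkx (-0.55).

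RefSeq promoter windows were found for 35 of the 44 members, 38 windows in all. Their median G and C content was 59.8%, against 52.7% for all 32851 windows, and it was 61.3% in the 8 fibrillar windows and 61.5% in the 8 basement membrane windows. GGGCGG on either strand occurred in 23 of 38 collagen windows (60.5%), against 35.7% of all windows, CCAAT in 13 (34.2%), against 37.4%, and TATAA in 7 (18.4%), against 24.9%. The windows of Col4a1 and Col4a2 overlap, as do those of Col6a2, so a site can count more than once. By position, 8 pairs of members lay within 100 kilobases of each other, with 3 pairs of type IV genes head to head, Col3a1 with Col5a2 and Col9a1 with Col19a1 tail to tail, and type VI genes in a row on chromosomes 9 and 10. Exons of 13 members overlap an exon of another gene, 10 of them a gene on the other strand, by at most 6.07% of their exon bases (Col9a3 with Tcfl5). The kit keeps strand, but the strand setting of the counting is not given in the sources used here.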

How the data were processed

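The 4 endocardial and 4 endothelial libraries were made with a column RNA kit and a strand-keeping mRNA kit, per the labels' protocols. The authors deposited 1 table of whole numbers, taken here as rounded estimated counts by gene symbol because the submitters' processing notes name Salmon, next to DESeq2 and build mm10. No source used here gives versions, the transcript set or the strand setting. Salmon divides reads shared by similar transcripts by a model, so close copies are less certain.

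Genes passing filterByExpr (a minimum count of 10 and 15 in total) were normalised by TMM and fitted in edgeR 4.0.16 (R 4.3.3, robust quasi-likelihood F-test) over the 8 libraries, endocardial minus endothelial, without a block because no label pairs libraries. Benjamini-Hochberg adjustment ran over 13817 genes, with a threshold of 0.05, and the common biological coefficient of variation was 0.239. SEs are the absolute log2 fold change over the square root of F. The edgeR, DESeq2 and limma fits were checked on simulated counts. These were drawn independently for each gene and library, so the check does not cover shifts shared by many genes of a library. Alternatives were DESeq2 1.42.0, limma 3.58.1 with voom quality weights, RLE scaling, no filter, a filter of 1 CPM in 4 libraries with 100 counts in total, neighbouring letters as a block, leaving out each library and, chosen after seeing the data, leaving out B and F.

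Members and lists were chosen with earlier results of these data known. All 44 members are described. Of each pathway list the 4 tested genes with the smallest p are named, except 1 gene that is not reported here. Dcn, Lum and Postn are both fibril partners and mesenchyme markers. Positions and transcript lengths are from GENCODE M21 (GRCm38, the assembly of mm10), which holds all 44 symbols, and promoters from RefSeq on GRCm38.p6.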

Additional observations from a re-analysis of the deposited data

Results flagged for a closer look

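Within a group of 4 libraries, single libraries stood far from the other 3 in 11 of 80 checks (13.8%) of collagen levels and class sums by Dixon's test at the 95% level. About 5% would be flagged among independent normal values. These checks share libraries, and the class sums hold the same genes, so they are not independent. The share flagged over all tested genes was not computed, so the excess cannot be read as particular to collagens. Library B was the one in 8 of the 11, each time the highest endothelial library. Those were Col4a6 at 3.74 CPM, with the other 3 at 1.88 to 1.91 CPM, Col3a1 at 5722 CPM, with the other 3 at 869 to 1025 CPM, Col11a1 at 307 CPM, with the other 3 at 109 to 141 CPM and Col6a1 at 136 CPM, with the other 3 at 60.9 to 71.4 CPM. They also included Col6a2 at 57.5 CPM, with the other 3 at 34.2 to 37.2 CPM, Col6a3 at 229.9 CPM, with the other 3 at 18.5 to 36.1 CPM, Col14a1 at 22.02 CPM, with the other 3 at 5.84 to 8.24 CPM and Col16a1 at 47.3 CPM, with the other 3 at 14.7 to 18.8 CPM. Col5a3 was highest in endothelial library F at 4.28 CPM, with the other 3 at 0.876 to 1.196 CPM. Col6a1 was lowest in endocardial library G at 58.8 CPM, with the other 3 at 88.4 to 90.5 CPM. Col12a1 was highest in endocardial library C at 127 CPM, with the other 3 at 47.8 to 59.8 CPM. Library B also held 4901 CPM of the 10 mesenchyme and fibroblast markers, of which 3498 CPM were Postn, and B was the highest library for 5 of the 10 and the lowest for Thy1. The part of those cells in its collagen levels was not tested.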

How the results depend on the processing

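Of the 36 tested genes, 21 kept their direction under every alternative that gave a value and 15 did not. Of 538 values of the 36 tested genes under 15 alternatives, 479 kept direction and side of the threshold, 18 passed it, 0 of the called values were lost, since none was called, and 41 turned, in 15 genes. The count of collagen genes called was 0 with RLE scaling, without a filter, with the stricter filter and without libraries B and F, and it was 0 to 1 when each library was left out, the 1 being Col22a1 without H among the 0 to 1 other collagens. Those fits called 0.961% to 3.27% of all genes. DESeq2 called 3, all of them other collagens, among 6.25% of all genes. Limma with voom weights called 6, 2 of the basement membrane and 4 other collagens, among 7.06% of all genes. With neighbouring letters as a block, a pairing no label states, 8 were called, among 8.71% of all genes. They were 1 fibrillar, 3 basement membrane and 4 others. The fibrillar median of -0.79 was -0.21 without B, -0.30 without B and F and -0.33 with limma, and the cause was not tested. With limma and voom weights, the log2 fold change turned to 0.21 for Col11a2, 0.37 for Col12a1, 0.21 for Col14a1, 0.23 for Col16a1, 0.22 for Col20a1, 0.033 for Col25a1, 0.14 for Col6a1 and 0.17 for Col6a2. With neighbouring letters as a block, the log2 fold change turned to 0.0047 for Col6a1 and -0.0941 for Col8a1. Without B and F, the log2 fold change turned to 0.53 for Col11a2, 0.19 for Col12a1, 0.62 for Col14a1, 0.17 for Col16a1, 0.52 for Col20a1, 0.12 for Col3a1, 0.0436 for Col4a6, 0.23 for Col6a1, 0.17 for Col6a2, 0.0157 for Col6a3 and 0.25 for Col6a6. When each library was left out in turn, the log2 fold changes that turned ran from -0.32 to 0.24 for Col11a2, -0.59 to 0.32 for Col12a1, -0.58 to 0.45 for Col14a1, -0.64 to 0.19 for Col16a1, -0.33 to 0.32 for Col20a1, -0.80 to 0.0853 for Col25a1, -1.49 to 0.12 for Col3a1, -0.45 to 0.0433 for Col4a6, -0.61 to 0.14 for Col5a1, -0.19 to 0.29 for Col6a1, -0.19 to 0.18 for Col6a2, -1.80 to 0.26 for Col6a3, -0.0537 to 0.18 for Col7a1 and -0.64 to 0.62 for Col8a1. Without F, and without B and F, Col5a3 was too low to test. Depth limits the 8 untested members and the low genes Col15a1, Col4a6, Col5a3, Col6a6 and Col25a1.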
